A study of Mus musculus with 2 samples.

Results

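Near-intron GATA4 peaks are sites of GATA4 binding whose summits lay inside a protein-coding gene, outside its exons, and more than 1 kb but at most 10 kb from the nearest transcription start site of a protein-coding gene. They were found by ChIP-seq, the sequencing of DNA that an antibody against GATA4 pulls down with chromatin, in whole liver of healthy adult mice. Of the 24083 peaks in the authors' optimal list, 24050 lay on chromosomes 1 to 19 and X, and 2870 of these (11.9%) were near-intron peaks. The choice rested on position alone, with genes and start sites from the GENCODE mouse release 21 basic annotation on the genome build GRCm38 (mm10). The series had 1 group of 2 samples, labelled biological replicates 1 and 2, with no treated group. The labels give them 1 shared donor and biosample, so their spread can be technical. Age is given as unknown and sex as not collected, and no genotype, strain or agent is named. The liver was taken whole, so these peaks carry no label of a cell type.

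GATA4 is a zinc-finger transcription factor that binds the motif WGATAR, in which W stands for A or T and R for A or G. In the adult liver it is best known from the sinusoidal endothelium, the fenestrated lining of the liver capillaries, and it has a role in the early formation of the liver. Introns close to a promoter often hold enhancers, short stretches of DNA that bind transcription factors and act on a promoter at some distance.

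Each site below is shown as the 101 bases centred on the summit, read from GRCm38, with every WGATAR match on either strand in capitals. These sites were taken from the named members to show 1 copy, several copies and no copy of the motif. The strand is the one on which the copy nearest to the summit reads WGATAR. Rhobtb1, which encodes an atypical GTPase with a BTB domain, had 2 copies at chr10:69219175-69219275 (plus strand), on opposite strands.
Rhobtb1: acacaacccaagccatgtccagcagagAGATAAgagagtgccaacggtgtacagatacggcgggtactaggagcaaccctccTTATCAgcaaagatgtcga
Foxn3, a forkhead repressor gene, had 2 copies at chr12:99440148-99440248 (plus strand).
Foxn3: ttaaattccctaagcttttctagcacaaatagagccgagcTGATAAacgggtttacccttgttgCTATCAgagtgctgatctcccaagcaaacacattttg
Sept9, a septin gene, had 3 at chr11:117336363-117336463 (plus strand), a pair of them overlapping.
Sept9: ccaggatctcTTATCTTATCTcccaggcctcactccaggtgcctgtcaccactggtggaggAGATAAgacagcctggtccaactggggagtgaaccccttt
Dop1b, a gene of endosomal membrane traffic, had 3 at chr16:93725543-93725643 (plus strand), 2 of them overlapping on opposite strands near the summit.
Dop1b: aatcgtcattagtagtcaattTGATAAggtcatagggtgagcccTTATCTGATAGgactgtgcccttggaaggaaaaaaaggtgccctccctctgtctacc
Mrc1, which encodes the mannose receptor of sinusoidal endothelial cells and macrophages, had 3 at chr2:14235473-14235573 (minus strand).
Mrc1: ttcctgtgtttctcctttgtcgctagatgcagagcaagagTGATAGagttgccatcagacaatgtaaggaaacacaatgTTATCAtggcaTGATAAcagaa
Fndc7, a gene with fibronectin type III domains, had 4 at chr3:108886349-108886449 (plus strand), in overlapping pairs.
Fndc7: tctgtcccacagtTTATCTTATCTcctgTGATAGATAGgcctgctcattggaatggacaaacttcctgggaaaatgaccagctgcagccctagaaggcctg

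Single copies were shown by the following sites. Vwa7, which encodes a protein with a von Willebrand factor A domain, had 1 copy at chr17:35022016-35022116 (plus strand).
Vwa7: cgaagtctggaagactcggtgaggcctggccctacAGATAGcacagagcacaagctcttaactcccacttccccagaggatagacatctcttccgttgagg
Creb3l3 encodes a hepatocyte transcription factor of fasting lipid metabolism and had 1 at chr10:81092673-81092773 (minus strand).
Creb3l3: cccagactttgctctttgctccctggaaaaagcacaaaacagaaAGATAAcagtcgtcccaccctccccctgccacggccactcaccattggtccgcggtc
Flt1, whose product is VEGF receptor 1, had 1 at chr5:147721535-147721635 (minus strand).
Flt1: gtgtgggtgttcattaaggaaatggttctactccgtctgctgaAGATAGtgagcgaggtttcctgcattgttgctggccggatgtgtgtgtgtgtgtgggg
Gata4 itself had 1 in its strongest near-intron peak, at chr14:63205517-63205617 (minus strand), towards the edge of the window.
Gata4: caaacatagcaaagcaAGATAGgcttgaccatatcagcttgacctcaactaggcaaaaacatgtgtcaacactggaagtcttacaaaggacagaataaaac
No copy lay in the windows of Pdlim5, Sec24a and Nr1i2. Their sequences are given on the plus strand, and there the capitals mark TGATTG, which differs from the searched motif in its core. Pdlim5 encodes a scaffold protein of the actin cytoskeleton, and its window was chr3:142385842-142385942.
Pdlim5: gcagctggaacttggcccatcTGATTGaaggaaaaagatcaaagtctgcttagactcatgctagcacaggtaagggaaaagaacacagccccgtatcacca
Sec24a encodes a cargo subunit of the COPII coat, and its window was chr11:51757779-51757879.
Sec24a: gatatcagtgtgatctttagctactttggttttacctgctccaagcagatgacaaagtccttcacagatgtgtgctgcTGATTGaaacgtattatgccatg
Nr1i2 encodes the xenobiotic receptor PXR, and its window at chr16:38287904-38288004 had neither form.
Nr1i2: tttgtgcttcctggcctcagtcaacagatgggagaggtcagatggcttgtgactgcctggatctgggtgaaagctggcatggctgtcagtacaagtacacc

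The authors' signal score, which has no stated unit, ranks the peaks within a list. The near-intron peaks spanned nearly the whole list, with ranks 2 to 24031 and a median of 11560 among 24050. They made up 12 of the strongest 100 peaks (12%) and 110 of the strongest 1000 (11.0%), beside their share of 11.9% of all peaks. The strongest lay in the second intron of Rhobtb1, 6031 bp downstream of a start site, with a score of 330. In the relaxed lists, which hold sub-threshold positions as well, its score was 104 in replicate 1 (rank 1) and 227 in replicate 2 (rank 6). Pdlim5 held the peak of rank 6, in its first intron 5916 bp downstream, with relaxed scores of 93.2 in replicate 1 and 220 in replicate 2. Vwa7 held that of rank 9, in intron 9, with 90.2 in replicate 1 and 186 in replicate 2. These peaks were thus near the top of each replicate's own list, although no WGATAR lay at the summit in Pdlim5. Scores of the 2 replicates' lists are on separate scales and are not compared in size.

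The rest of the 20 strongest ended at rank 148. Ggnbp2, which encodes a gametogenetin-binding protein, held rank 23, with relaxed ranks of 38 in replicate 1 and 30 in replicate 2. Sept9 (rank 34) ranked 165 in replicate 1's relaxed list and 33 in replicate 2's, and Dop1b (rank 46) ranked 222 in replicate 1's and 38 in replicate 2's. Anxa9, an annexin gene, held rank 59, the predicted gene Gm16253 rank 72, Mrc1 rank 85 and Foxn3 rank 88. Pid1, whose product binds phosphotyrosine-containing receptors, held rank 90, and the predicted gene Gm826 rank 92. Below these came Sec24a (rank 119), the kynurenine aminotransferase gene Kyat3 (rank 124), the ethanolamine phosphotransferase gene Selenoi (rank 130) and Fndc7 (rank 134). Next were the tetraspanin gene Cd82 (rank 138), Dixdc1 (rank 141) and the choline dehydrogenase gene Chdh (rank 148). Every one of the 20 was in both replicates' thresholded lists, and 18 of them had at least 1 WGATAR, Pdlim5 and Sec24a being the exceptions. The Dixdc1 peak lay in its intron 18 and was nearest to a start site of another gene, Dlat, which encodes a subunit of the pyruvate dehydrogenase complex.

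WGATAR lay within 50 bp of the summit in 1754 of the 2870 near-intron peaks, or 61.1% (95% Wilson interval 59.3 to 62.9%), against 14.8% of equally long flanking windows, centred 500 bp away. Over all 24050 summits the share was 52.8%. The strict form AGATAA was at 32.4% of near-intron summits, against 5.05% of their flanks and 27.2% of all summits. Regions are not replicates, so these intervals and the p-values below cover counting over the listed peaks only. Near-intron peaks differed from intronic peaks over 10 kb from a start site (deep-intron peaks) by -0.304 percentage points, at 61.1% against 61.4% (95% Newcombe interval -2.44 to 1.81). The difference did not pass the threshold (two-sided Fisher's exact test, Benjamini-Hochberg adjusted p = 0.899 over 39 comparisons of 13 motifs with 3 classes). It did within 100 bp of the summit, where 71.6% of near-intron and 74.2% of deep-intron peaks had the motif (Fisher's exact test, adjusted p = 0.0203). Against peaks at the same distances outside genes (near-intergenic peaks, 57.9%), the near-intron share was higher by 3.19 points (0.295 to 6.10), which missed the threshold after adjustment (Fisher's exact test, adjusted p = 0.0762). Promoter peaks, within 1 kb of a start site, had WGATAR at 25.7%, which was 35.4 points below the near-intron peaks (33.2 to 37.5, Fisher's exact test, adjusted p = 6.19e-213).

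The size of the gap to promoter peaks differed between the lists. In replicate 2's own thresholded list WGATAR was at 58.7% of 3065 near-intron summits and 20.9% of 6643 promoter summits, a gap of 37.8 points. In replicate 1's list it was at 69.4% of 558 near-intron summits and 63.7% of 333 promoter summits, a gap of 5.69 points (-0.665 to 12.1) that did not pass the threshold (Fisher's exact test, adjusted p = 0.5). In the conservative list, which draws on both replicates, it was at 72.2% of 1190 near-intron summits and 57.6% of 961 promoter summits, a gap of 14.5 points (10.5 to 18.5, Fisher's exact test, adjusted p = 3.55e-11).

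**Figure D1:**
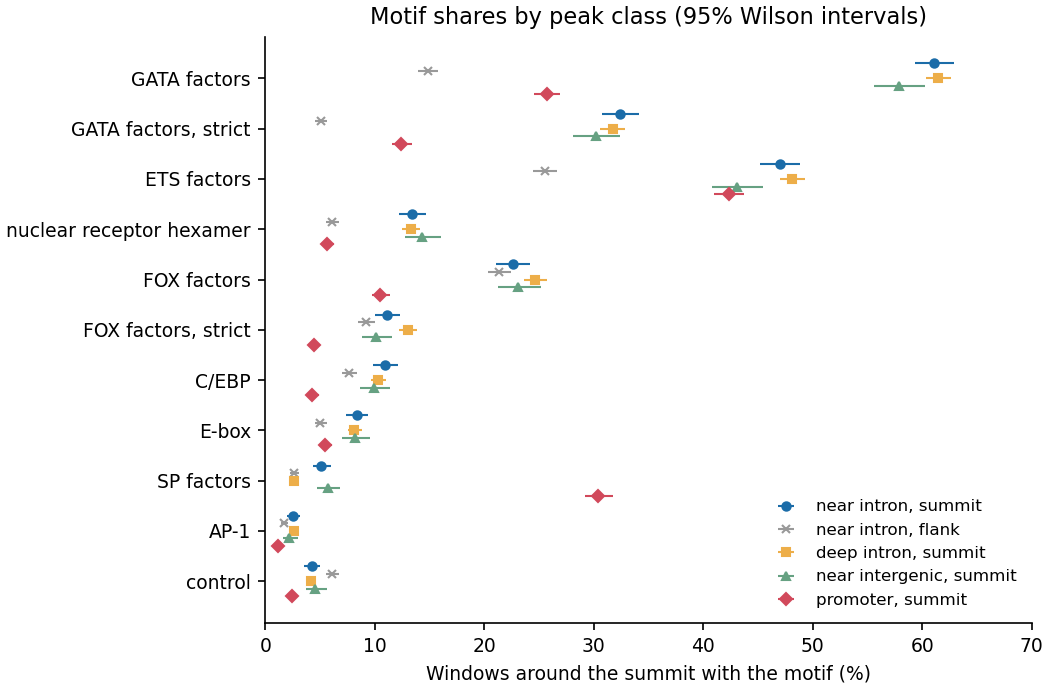
Share of 101-bp windows (horizontal axis, percent) that hold each motif, named by the factor family it is searched for, with 95% Wilson intervals. Circles are near-intron summits, crosses their flanks 500 bp away, squares deep-intron, triangles near-intergenic and diamonds promoter summits; the GATA share is 61.1% at near-intron summits, close to the 61.4% of deep-intron summits and above the 25.7% of promoter summits.

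The copies sat close to the summit and had no preferred strand. The 2870 windows held 2187 copies of WGATAR, of which 45.6% were AGATAA, 24.9% TGATAA, 18.9% AGATAG and 10.5% TGATAG. Of these, 1094 lay on the strand of the host gene and 1093 on the other strand. Counted in bins of 20 bp, the density was highest in the 2 bins beside the summit, with 20.9 and 17.8 copies per 100 summits, and was 3.59 at the left end and 2.96 at the right end of a window of 200 bp to each side. In the 1754 peaks with a copy, the nearest one lay a median of 17.5 bp from the summit. A single copy was found in 1411 peaks, 2 copies in 290 and 3 or more in 53. In the peaks with 2 copies the copies ran in the same direction in 163 (56.2%), pointed away from each other in 79 (27.2%) and pointed at each other in 48 (16.6%), with a median of 30 bp between their starts.

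**Figure D2:**
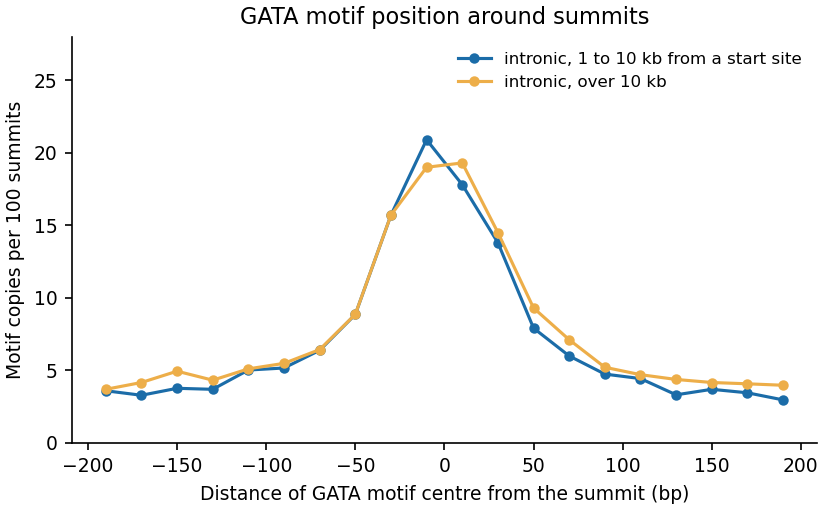
Copies of the GATA motif per 100 summits (vertical axis) by distance of the copy's centre from the summit in bp (horizontal axis, bins of 20 bp). Near-intron peaks and deep-intron peaks both have their highest density beside the summit, where the near-intron peaks reach 20.9 copies per 100 summits.

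Peaks with more copies ranked higher in the list, as a description of the same windows. The median rank was 14568 with no copy (1116 peaks), 10202 with 1, 6740 with 2 and 5367 with 3 or more. The share found in replicate 1's list was 10.6%, 22.0%, 32.8% and 41.5% over the same steps. The same order is seen by signal quintile of the whole list, where WGATAR was at 82.0% of the near-intron peaks in the strongest quintile and at 42.9% in the weakest. Promoter peaks had it at 63.3% in the strongest quintile and at 12.1% in the weakest. The strongest quintile held 20.7% of the near-intron peaks and 13.1% of the promoter peaks, and the part of signal in the gap between these classes was not tested.

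Among the motifs of other factor families, 3 differences between near-intron peaks and deep-intron or near-intergenic peaks passed the threshold. Exon peaks, and peaks outside genes over 10 kb from a start site (far-intergenic peaks), were not tested. MGGAAR, where M is A or C, is the core bound by ETS factors, which include the endothelial regulators ERG and FLI1. It lay at 47.0% of near-intron summits, against 25.5% of their flanks and 46.0% of all summits. Near-intergenic peaks had it at 43.1%, which was 3.91 points lower (0.970 to 6.84, Fisher's exact test, adjusted p = 0.0239). GGGCGG, the GC box bound by SP factors, was at 5.09% of near-intron summits and 2.60% of their flanks, with 9.33% over all summits. Deep-intron peaks had it at 2.60%, a difference of 2.49 points (1.64 to 3.42, Fisher's exact test, adjusted p = 9.52e-09), and promoter peaks at 30.4%. The forkhead motif TGTTTRY, where Y is C or T, was at 11.1% of near-intron and 13.0% of deep-intron summits (Fisher's exact test, adjusted p = 0.0239), with 10.7% over all summits. None of these 3 differences passed the threshold in replicate 1's own list or in the conservative list. The adjusted Fisher's exact p for MGGAAR was 1.00 in replicate 1's list, 0.773 in the conservative list and 0.194 in replicate 2's list. GGGCGG was at 14 of 558 near-intron summits (2.51%) and 18 of 1405 deep-intron summits (1.28%) in replicate 1's list (Fisher's exact test, adjusted p = 0.5). In the conservative list the shares were 2.18% of near-intron and 1.96% of deep-intron summits (Fisher's exact test, adjusted p = 0.843). In replicate 2's list they were 5.48% of near-intron and 2.97% of deep-intron summits (Fisher's exact test, adjusted p = 1.23e-08). For TGTTTRY the adjusted Fisher's exact p was 1.00 in replicate 1's list, 0.486 in the conservative list and 0.00364 in replicate 2's list.

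The nuclear receptor hexamer AGGTCA lay at 13.4% of near-intron summits, against 6.11% of flanks, and at 11.8% of all summits. CAGCTG, an E-box that TAL1 can bind, was at 8.33% against 5.02% of flanks (7.68% of all summits). The C/EBP motif TTRCNNAA was at 10.9% against 7.65% (9.14% of all summits), and the AP-1 motif TGASTCA, where S is C or G, at 2.47% against 1.71% (2.45%). The HNF4 motif CAAAGTYCA was rare, at 0.871% of near-intron summits, 0.226% of flanks and 0.973% of all summits. The motif of NFI factors was at 1.11%, 0.139% and 0.915%. The broader forkhead motif TRTTKRY, where K is G or T, differed little from its flanks, at 22.6% against 21.3% (21.7% of all summits). WTATGC, included as a control, was at 4.22% of near-intron summits and 6.08% of flanks (3.89% of all summits). Against deep-intron peaks 2 of 13 motifs passed the threshold, against near-intergenic peaks 1 and against promoter peaks 12. The control WTATGC was among these 12, at 4.22% of near-intron and 2.41% of promoter summits (Fisher's exact test, adjusted p = 3.82e-05). Passing against promoter peaks was therefore seen for the control motif as well as for motifs of the factor families. TGTTTRY and TRTTKRY share sequences, as do WGATAR and AGATAA. A form of the control, TTATGC, can lie inside a match to TTRCNNAA, so the control is not fully separate from the factor motifs. Near-intron summits had a mean GC content of 49.5% (SD 7.70, n = 2870) and their flanks 46.6%. The mean was 48.1% in deep-intron, 49.9% in near-intergenic and 61.9% in promoter peaks. Base composition thus differed most from promoter peaks, and less from deep-intron peaks and flanks. Its part in the motif shares was not tested for any of these comparisons.

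Motifs of different families also divided the near-intron peaks. MGGAAR was at 42.8% (40.5 to 45.1%) of those with WGATAR and at 53.7% (50.7 to 56.6%) of those without. GGGCGG was at 3.31% (2.57 to 4.25%) and 7.89% (6.44 to 9.61%). TRTTKRY went the other way, at 24.9% with WGATAR and 19% without. GC content was 48.5% in the peaks with 1 copy of WGATAR and 51.9% in those with none, and its part in these shares was not tested.

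Support by the replicates was unequal. Replicate 1's thresholded list held 4287 peaks and replicate 2's 26314. Of the near-intron peaks 545 (19%, 17.6 to 20.5%) overlapped replicate 1's list by 1 base or more, against 17.0% of all peaks. For replicate 2's list the number was 2367 (82.5%, 81.0 to 83.8%), against 82.5% of all peaks. Both lists held 522 (18.2%, against 16.3% of all peaks), replicate 1's alone 23, replicate 2's alone 1845 and neither 480. The authors' conservative list held 1189 (41.4%, against 38.2% of all peaks). Most of these peaks, like most peaks of the whole optimal list, therefore had no support from replicate 1's own list. In the relaxed lists, 76.0% had a position in replicate 1 and 99.8% in replicate 2, against 72.1% and 99.9% of all peaks. Where both had one (2176 peaks), the relaxed scores correlated with a Spearman rho of 0.508, beside 0.487 over all peaks. The points share the 2 libraries and the peak selection, so the correlation is a description.

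**Figure D3:**
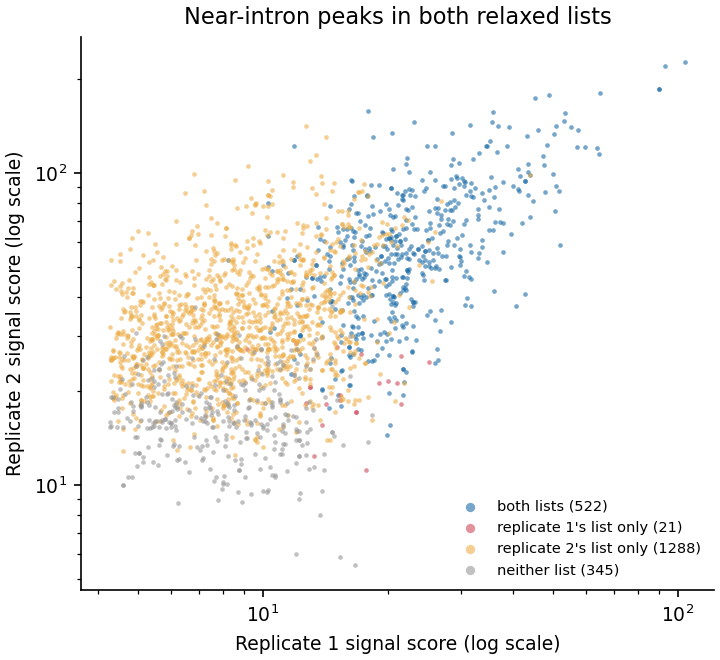
Signal score of each near-intron peak in the relaxed list of replicate 1 (horizontal axis) and of replicate 2 (vertical axis), both on log scales and without a stated unit, for the 2176 peaks with a position in both. Colours show which thresholded lists hold the peak; those in both lists lie towards high scores in each replicate, and those in neither lie low in replicate 2.

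No difference in support between near-intron peaks and deep-intron or near-intergenic peaks passed the threshold. Exon and far-intergenic peaks were not tested. Of the exon peaks 12.8% (10.3 to 15.9%) were in replicate 1's list, and of the far-intergenic peaks 21.7% (20.7 to 22.7%). Replicate 1's list held 19% of near-intron, 19.7% of deep-intron and 19.2% of near-intergenic peaks. The differences were -0.695 points (-2.39 to 1.05, Fisher's exact test, adjusted p = 0.673 over 6 comparisons) and -0.168 points (-2.52 to 2.13, adjusted p = 0.908 by the same test). Promoter peaks were in it less often, at 6.14%, which left a gap of 12.9 points (11.3 to 14.5, Fisher's exact test, adjusted p = 3.31e-67). In replicate 2's list the shares were 82.5% for near-intron, 82.1% for deep-intron, 83.6% for near-intergenic and 83.6% for promoter peaks, and none of these differences passed the threshold (Fisher's exact test, adjusted p = 0.821, 0.673 and 0.543 in that order). WGATAR was at 78.7% (75 to 82.0%) of the near-intron peaks in both lists, 58.4% (56.2 to 60.7%) of those in replicate 2's alone and 51.9% (47.4 to 56.3%) of those in neither. Of the 23 in replicate 1's alone 69.6% had it (49.1 to 84.4%). Median rank moved with support, at 2786 for both lists, 12224 for replicate 1's alone, 11651 for replicate 2's alone and 19760 for neither.

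Signal and support went together within the class, as a description. The signal of the optimal list is that of the pooled reads of both replicates, so it is not independent of support. The same holds for the median ranks by support given above. Replicate 1's list held 62.9% of the near-intron peaks in the strongest quintile, 18.8% in the second, 2.10% in the fourth and 3.69% in the weakest. Replicate 2's list held 100% of those in the strongest quintile and 48.5% of those in the weakest. Both replicates' lists thus held smaller shares of the weak peaks than of the strong ones, replicate 1's from the second quintile on.

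**Figure D4:**
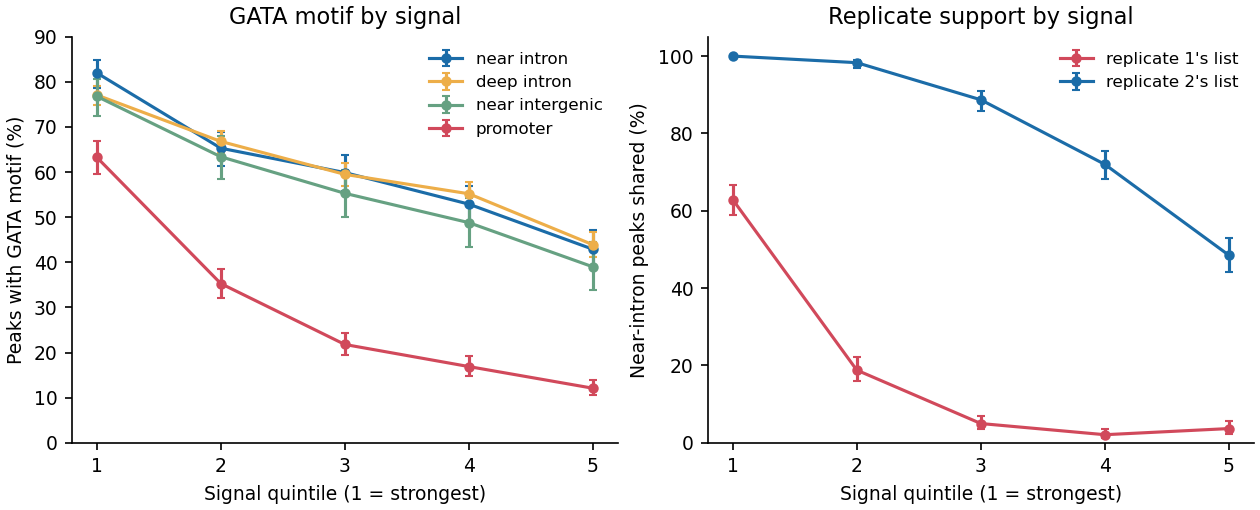
Left, share of peaks with the GATA motif (vertical axis, percent) by signal quintile of the optimal list (horizontal axis, 1 is the strongest) for 4 peak classes. Right, share of near-intron peaks found in each replicate's thresholded list by the same quintiles; bars are 95% Wilson intervals, and near-intron peaks with the motif go from 82.0% to 42.9% over the quintiles.

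The near-intron peaks lay a median of 4298 bp from the nearest start site (quartiles 2298 and 6884 bp), and 1631 (56.8%) lay within 5 kb. The intron sequence that the rule makes eligible came to 187 Mb, which gives 15.3 summits per Mb. Deep introns had 9.14 per Mb, intergenic sequence at the same distances 12.1 and promoters 97.4. Between 1 and 2 kb the density was 22.3 per Mb (exact Poisson interval 20.5 to 24.2, 592 summits), between 2 and 3 kb 16.4 (14.9 to 18.1) and between 3 and 4 kb 15.4 (13.8 to 17.1). From 4 kb on it stayed between 12.5 and 14.2, so the density was highest next to the promoter limit. In replicate 2's list it was 23.7 per Mb between 1 and 2 kb and 13.8 between 9 and 10 kb. Replicate 1's list showed 3.39 (2.73 to 4.17) between 1 and 2 kb, between 2.68 and 3.83 in the bins from 2 to 7 kb, 2.56 (1.88 to 3.4) between 7 and 8 kb, 1.60 (1.06 to 2.31) between 8 and 9 kb and 2.74 (2.00 to 3.65) between 9 and 10 kb. In that list the interval of the 8 to 9 kb bin lay below that of the 1 to 2 kb bin, and the intervals of the other bins overlapped it.

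First introns were denser than other introns at the same distances. They held 1891 of the near-intron peaks (65.9%), at 18.6 per Mb (17.8 to 19.5), against 11.4 per Mb (10.7 to 12.1) in other introns. Each replicate's own list showed the same order, with 3.68 against 2.15 per Mb in replicate 1 and 20 against 12 in replicate 2. The order held in each 1-kb bin, and the intervals overlapped from 8 kb on. WGATAR was at 61.0% (58.8 to 63.1%) of the peaks in first introns and 61.4% (58.3 to 64.4%) of those in other introns, and replicate 1's list held 19.2% of the first-intron and 18.6% of the other-intron peaks. The split by intron was chosen after the data were seen and was not tested. By side, 2280 (79.4%) lay downstream of the nearest start site by its strand and 590 upstream. Since genes extend downstream, the eligible sequence does so as well, and per Mb the density was 15.7 (15.1 to 16.4) downstream and 14.0 (12.9 to 15.1) upstream.

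**Figure D5:**
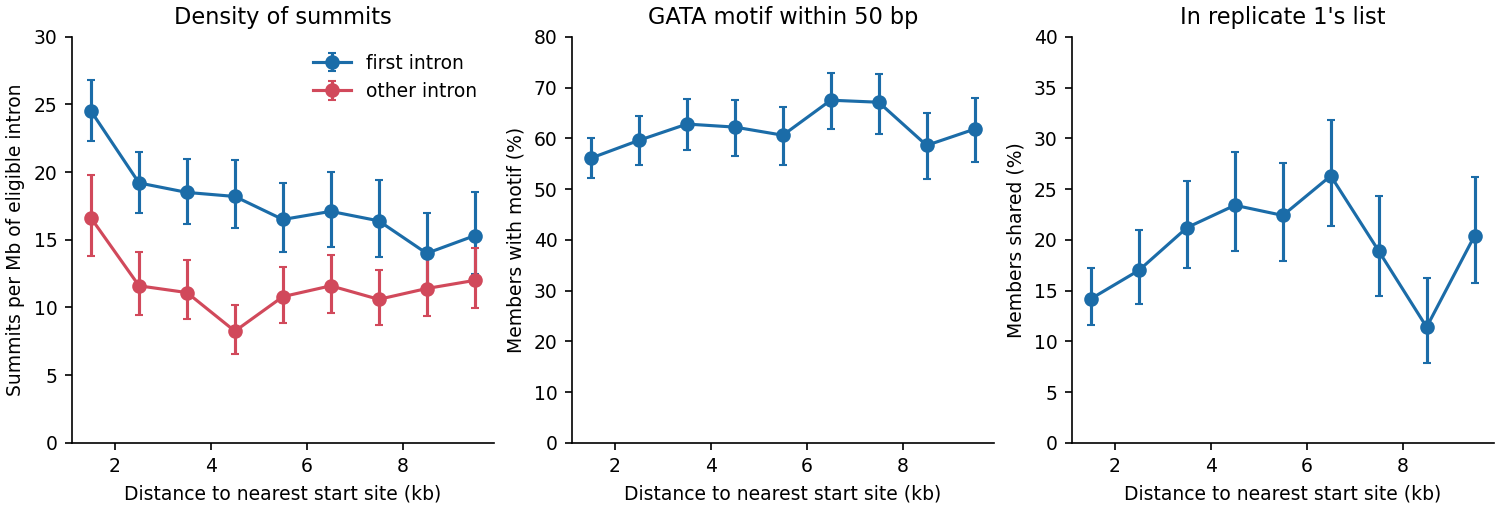
Near-intron peaks by distance from the nearest start site in kb (horizontal axes, 1-kb bins). Left, summits per Mb of eligible sequence in first and other introns with exact Poisson intervals; middle, share with the GATA motif; right, share in replicate 1's list, both in percent with 95% Wilson intervals, lowest for the motif at 56.1% between 1 and 2 kb.

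The peaks closest to the start site differed in makeup from the rest. Between 1 and 2 kb, WGATAR was at 56.1% (52.1 to 60.0%) and GGGCGG at 8.28%, and 14.2% were in replicate 1's list. Between 2 and 10 kb the values were 62.4% (60.4 to 64.4%), 4.26% and 20.2%. Single bins within that range varied. Between 8 and 9 kb WGATAR was at 58.6% (52.0 to 64.9%), and 11.4% (7.82 to 16.2%) were in replicate 1's list. A low share in that list was thus not particular to the closest peaks. Median rank was 13430 between 1 and 2 kb and 10992 beyond. GC content was 50.6% between 1 and 2 kb and 49.3% beyond. At the limits of the rule, the 326 members between 1000 and 1500 bp had WGATAR at 54%, beside 55.7% for the 465 intronic summits between 500 and 1000 bp, outside the class. At the far limit the 225 members between 9 and 10 kb had 61.8%, beside 63.7% for the 204 summits between 10 and 11 kb. Members next to the near limit lay in Capn10 (1003 bp, rank 11990) and Dnase2b (1003 bp, rank 10736). Those next to the far limit lay in Med15 (9970 bp, rank 7965), Mid1 (9974 bp, rank 18775) and Ssbp3 (9995 bp, rank 4559).

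Near-intron peaks lay close to other peaks. Another summit of the optimal list was within 5 kb of 49.8% of them (48.0 to 51.7%), against 38.2% of deep-intron, 50.4% of near-intergenic and 40.2% of promoter peaks. For 967 (33.7%) the nearest start site itself had a summit within 1 kb. These had WGATAR at 61.0%, and the others at 61.2%. A summit at the promoter was seen for 861 of 2160 genes with a near-intron peak (39.9%, 37.8 to 41.9%) and for 22.3% (21.7 to 22.9%) of the 17467 eligible genes without one.

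The 2870 peaks lay in 2160 of the 19627 protein-coding genes with eligible intron sequence (11.0%). Of these genes 1581 held 1 such peak, 399 held 2 and 180 held 3 or more. A peak in an intron does not assign it to that gene. For 219 the nearest start site belonged to a gene that the peak did not lie in, and 140 lay in more than 1 gene. Some did not lie in an intron proper: 115 were in a gene record but in no intron of a basic transcript, and 48 in an exon of a non-coding gene. The most peaks were counted for the gene records Gm20388 (24) and Fgfr2 (13). Each of these records spans megabases and several other genes, and 10 peaks lay in these records alone. Sh3bp5, which encodes an SH3-domain binding protein, held 7, of which 4 had WGATAR, replicate 1's list had 1 and replicate 2's 4. Its peaks at chr14:31433045-31433404 and chr14:31433263-31433622 overlap and were counted separately. Arhgap26, a GTPase-activating protein gene, held 7 as well, and its record overlaps Fgf1. Most of these 7 peaks, among them the strongest (rank 1084), were nearest to a start site of Fgf1. Dop1b held 6, all of them in replicate 2's list and 2 in replicate 1's, with ranks 46, 2663, 3301, 8270, 10716 and 19590. Gse1, Pitpnc1, Pik3r1, Tcf4 and Sept9 also held 6 each.

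Genes of the sinusoidal endothelium held near-intron peaks in 15 of 28 eligible members (53.6%), beside 11.0% of all eligible genes, with 30 peaks in all. Of these 30 peaks 14 had WGATAR, replicate 1's list had 7 and replicate 2's 21. The shares of all near-intron peaks were 61.1%, 19% and 82.5% in the same order, and those of all peaks 52.8%, 17.0% and 82.5%. This gene list, like those below, was chosen with earlier results of these data known, so its share is a description. Mrc1 held 4, the strongest in its first intron 6131 bp from the start site, with relaxed scores of 55.1 in replicate 1 (rank 93) and 140 in replicate 2 (rank 145). Ptprb, a vascular endothelial phosphatase gene, held 3, the strongest of rank 1042. Flt1 held 1, of rank 1136, with relaxed ranks of 1117 in replicate 1 and 1299 in replicate 2. Tek, which encodes the angiopoietin receptor, held 2, the strongest of rank 1850 and without WGATAR, in replicate 2's list and not in replicate 1's. The others with such a peak were Dnase1l3, Maf, Clec4g, Kdr, Eng, Flt4, Fcgr2b, Ehd3, Cdh5, Ramp2 and Pecam1. The strongest peaks of the last 5 ranked between 13576 and 23250 and were in neither replicate's list. Stab1, Stab2, Lyve1, Gpr182 and Oit3, defining markers of these cells, had none in this class.

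Endothelial transcription factors had a near-intron peak in 7 of 19 eligible genes (36.8%). Id3, which encodes an inhibitor of helix-loop-helix factors, held the peak of rank 409, which was in replicate 2's list alone. Epas1, which encodes HIF-2 alpha, held that of rank 1056, in both lists. Tcf4 held 6, the strongest of rank 4426, and none of its 6 had WGATAR. Elk3 held 1 (rank 6118), Mef2c 3, Erg 2 and Ets2 1. Of the GATA family and its FOG cofactors 3 of 8 genes held one. Gata4 held 5, of which 1 had WGATAR, replicate 1's list had 1 and replicate 2's 4. Among all near-intron peaks these shares were 61.1%, 19% and 82.5%. The strongest Gata4 peak had relaxed scores of 18.3 in replicate 1 and 40.8 in replicate 2. Gata2 held 1 (rank 3717) and Zfpm1, the gene of FOG1, held 2 (ranks 7654 and 19141). The Zfpm1 summits lay close together, 2475 and 2700 bp downstream of the start site.

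Genes of liver transcription factors held near-intron peaks in 10 of 22 (45.5%), 19 peaks in all. Replicate 1's list had 3 of these and replicate 2's 17, beside 19% and 82.5% of all near-intron peaks. The Nr1i2 peak (rank 436) had relaxed ranks of 905 in replicate 1 and 423 in replicate 2, with no WGATAR in the window shown above. Creb3l3 held the peak of rank 524 in its second intron, with relaxed ranks of 2020 in replicate 1 and 366 in replicate 2. Hnf4a, a nuclear receptor gene of hepatocyte identity, held the peak of rank 1443, with 1 WGATAR and support from replicate 2's list alone. Nr1h4, the gene of the bile acid receptor FXR, held that of rank 2415, in both lists. Others were Rxra, Onecut2, Nfib, Onecut1 and Nr5a2, all in replicate 2's list and none in replicate 1's by their strongest peak.

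Hepatocyte genes held one in 7 of 30 (23.3%), and replicate 1's list had none of these 7 peaks. It held 19% of all near-intron peaks, and 7 peaks are too few to set the hepatocyte genes apart from that share. The strongest of the 7 were in Slc2a2, the glucose transporter gene (rank 1920), and in Trf, the transferrin gene (rank 2597). Glul followed at rank 4979, a peak nearest to a start site of another gene, Teddm2, and F2, the prothrombin gene, at rank 6152. Alb had its peak in intron 9, of rank 21701 and in neither replicate's list. Of the metabolic lists, glucose and fasting genes held one in 9 of 20 (45.0%), urea cycle and amino acid genes in 8 of 18 (44.4%) and bile acid and sterol genes in 8 of 19 (42.1%). Slc25a15, which encodes the mitochondrial ornithine carrier of the urea cycle, held the peak of rank 420, with relaxed scores of 28.4 in replicate 1 and 106 in replicate 2 and 2 copies of WGATAR. Scarb1, the high-density lipoprotein receptor gene, held that of rank 1382, in both lists. Asl, the argininosuccinate lyase gene (rank 2738), and Fbp1, the fructose bisphosphatase gene (rank 2790), each held one in both lists. Got1 held 2, the stronger of rank 3345, and Irs1 and Abca1 held 1 each, of rank 9661 and 7107.

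Cytochrome P450 and conjugation genes held one in 5 of 20 (25%). Ephx1, an epoxide hydrolase gene, led at rank 2259, followed by Cyp2c29 at rank 2630, which ranked 332 in replicate 1's relaxed list and 7742 in replicate 2's. Por and Cyp4a10 followed at ranks 13247 and 13704. Coagulation and complement genes held one in 5 of 23 (21.7%), with F8 (rank 3630), Masp1 (rank 3642) and F11 (rank 4100) ahead of F2. The 6 peaks of this list all had WGATAR, beside 61.1% of all near-intron peaks. In the urea cycle and amino acid list 2 of 10 peaks had it. Both counts are small, come from among 18 gene lists and were not tested. Heme and iron genes held one in 3 of 20 (15%), in Trf, Alad (rank 7374) and Tfr2 (rank 22655).

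The remaining lists were near the 11.0% of all eligible genes or below it. Cholangiocyte genes held one in 2 of 13 (15.4%), in Aqp1 (rank 8840) and Onecut1 (rank 9927). Cardiac muscle genes held one in 2 of 15 (13.3%), in Mef2c and Tnnt2. Erythroid and megakaryocyte genes held one in 2 of 16 (12.5%), in Nfe2 (rank 4898) and Ank1. Kupffer cell and macrophage genes held one in 2 of 20 (10%), in Mertk (rank 11184) and Cx3cr1, where the peak also lay inside Csrnp1. Stellate and mesenchymal genes held one in 2 of 20 (10%), in Bmp10 (rank 3343) and Rgs5, neuron genes in 1 of 18 (Syt1, rank 3607) and ubiquitous genes in 1 of 20 (B2m, rank 14926). The eligible intron sequence per gene was of like length in the sinusoidal endothelial list (median 8.89 kb) and over all eligible genes (8.73 kb), but shorter in the cardiac (4.65 kb) and ubiquitous (5.33 kb) lists.

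In soft-masked repeat sequence lay 267 of the near-intron summits (9.30%), against 8.28% of all summits.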

How the data were processed

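Whole-liver GATA4 ChIP-seq peak lists on mm10 were used as the authors deposited them: an optimal and a conservative list over both replicates, and a thresholded and a relaxed list for each. The signal of a peak and the score of its irreproducible discovery rate (IDR) are the authors' deposited values per peak. Read from the values, it is 125 times minus log2 of the IDR and is limited to 1000. The signal has no stated unit and was used only to rank or describe peaks within a list. Per the file headers, the optimal, conservative and relaxed lists come from an earlier run than the thresholded lists of each replicate, so support compares runs. For aligner and peak caller, versions included: not given in the sources used here. Read depth is unknown.

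The members, gene lists, motifs and named genes were chosen with earlier results of these data known. Summits were classed by distance to 41219 start sites of protein-coding genes on chromosomes 1 to 19 and X. Of the peaks, 85.6% are 360 bp wide, 12 lines repeat a position, and 2 of these are members. Motifs were searched on both strands in 101 bp of GRCm38.p6 around the summit and 500 bp to each side. Overlap meant at least 1 shared base. Class shares were compared with the two-sided Fisher's exact test and Benjamini-Hochberg adjustment over 39 motif or 6 support comparisons, with a threshold of 0.05. Density is summits per Mb of sequence the rule makes eligible. Named genes were the 20 strongest members, up to 4 per gene list by rank, the 5 genes with most members and the members next to each limit; genes named beyond these were chosen after their values were seen. C5, of the coagulation and complement list, was not found in the annotation. The 107 members on chromosome 18 entered every count. Overlap, motif, class and test code was tested on simulated data. Python 3.11.15, numpy 2.4.6, pandas 2.3.3, scipy 1.17.1 and matplotlib 3.10.9 were used. Some genes that the naming rule or the lists would give are counted but not reported by name here.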

Additional observations from a re-analysis of the deposited data

How the results depend on the processing

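No paired analysis was possible because the series has 1 group, so no 2 groups share replicate numbers. The WGATAR gap between near-intron and promoter peaks kept its direction under all 10 alternatives and missed the threshold in 1, replicate 1's own list. Leaving out 1 replicate by using the other's own list gave 5.69 to 37.8 points against promoter peaks, -2.05 to 2.24 against deep-intron and -1.13 to 4.06 against near-intergenic peaks. The deep-intron difference, near 0, changed sign with AGATAA (0.687), an IDR of at most 0.01 (1.25), the conservative list (1.93) and a promoter limit of 2 kb (1.00). It passed the threshold within 100 bp of the summit (-2.58, Fisher's exact test, adjusted p = 0.0203). The near-intergenic difference passed it in replicate 2's own list (4.06, Fisher's exact test, adjusted p = 0.0125) and, in a setting chosen after seeing the data, without soft-masked summits (3.85, Fisher's exact test, adjusted p = 0.0401). Against deep-intron and near-intergenic peaks, the 3 calls for other motifs were lost in 14 and changed sign in 2 of 27 settings, all run after seeing the data. They were not equally stable. GGGCGG lost its call only in the conservative list and in replicate 1's own list. MGGAAR kept its call only with introns of basic transcripts. TGTTTRY kept its call only within 100 bp of the summit, with an IDR of at most 0.01 and in replicate 2's own list. In the replicates' own lists, TGTTTRY ranged from -2.25 to 0.610 points against deep-intron and MGGAAR from -0.975 to 2.33 against near-intergenic peaks.

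Support in replicate 1's list kept its gap to promoter peaks under all 6 alternatives run for it. Differences that missed the threshold changed sign as follows. Replicate 2's support against promoter peaks was 2.25 points with 50% of the peak covered, 0.494 with the summit inside the peak and 0.681 with a promoter limit of 2 kb. Against deep-intron peaks it was -0.403 with an IDR of at most 0.01 in the replicate's list and -0.704 with that limit in the optimal list. Against near-intergenic peaks it was 0.503 with the same limit in the optimal list, 0.0676 with start sites of all gene types and 0.380 with a promoter limit of 2 kb. Replicate 1's support with that promoter limit was 0.552 against deep-intron and 1.60 against near-intergenic peaks. The causes were not tested.

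The class held 1190 members in the conservative list, and 558 to 3065 in the replicates' own lists. Members within 5 kb were 53.4% in the conservative list and 53.6 to 57.3% in the replicates' lists. Those downstream of the nearest start site were 81.2% in the conservative list, 79.9 to 81.4% in the replicates' lists and 68.3% with start sites of all gene types. Read depth is unknown, so what it limits cannot be stated.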

Other observations

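Near-intron peaks without WGATAR were searched for a related form after their sequences had been seen. WGATTA lay at 19.4% (17.2 to 21.9%) of the 1116 such summits, against 7.17% (6.17 to 8.31%) of their flanks, and at 10.9% of the 1754 summits with WGATAR, against 6.76% of flanks. WGATTG lay at 13.6% (11.7 to 15.8%) of the summits without WGATAR, against 6.14% (5.22 to 7.21%) of their flanks. It lay at 10.3% of the summits with WGATAR, against 7.55% of flanks. Of the 15 members in the strongest 1000 peaks that lack WGATAR, 7 had WGATTA and 3 had WGATTG. Among their 30 flanks 2 had WGATTA and 3 had WGATTG. Pdlim5 and Sec24a, whose sequences are shown above, are among the 3 summits with WGATTG. Over all 24050 summits WGATTA was at 13.0% and WGATTG at 11.2%.

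A few members with many WGATAR copies lay in soft-masked sequence. Mgst1, a microsomal glutathione transferase gene, had 21 copies in 101 bp at rank 19138, in neither replicate's list. Tat, the tyrosine aminotransferase gene, had 10 at rank 20824, also in neither list. Ugt1a6a, a glucuronosyltransferase gene, had 11 at rank 8970, in replicate 2's and the conservative list and not in replicate 1's. Fndc7, with 4 copies, was not masked and held rank 134.

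The peak in Tmem189 nearest to the start site of Cebpb, a C/EBP factor gene, ranked 164 in the optimal list, 3277 in replicate 1's relaxed list and 67 in replicate 2's. It lay 1067 bp upstream. Ihh, which encodes a hedgehog ligand, held the peak of rank 189, which ranked 1820 in replicate 1's relaxed list and 108 in replicate 2's, and its window had a GC content of 75.2%.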
